A study of Mus musculus with 6 samples.

Results

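Glycolysis and hypoxia response genes were followed in the E16.5 mouse lateral ganglionic eminence (LGE), the embryonic primordium of the striatum. The set holds 40 genes of the 15168 listed, taken as a named list of glucose and lactate transporters, glycolytic enzymes and targets of the hypoxia-inducible factor (HIF), so no measured value chose them. All 40 passed the filter on low values. Bulk RNA-seq covered 3 libraries of *Dlx5/6-CIE; Rosa-Sp9-OE/+* LGE, called overexpression here, and 3 libraries of *Dlx5/6-CIE* LGE, the controls. Both groups carry the *Dlx5/6-Cre-IRES-EGFP* transgene, whose Cre is active in LGE progenitors and therefore in their neurons. The overexpression group also carries 1 *Rosa26* allele with a CAG promoter, a floxed *LacZ* stop and the *Sp9* coding sequence, so that *Sp9*, a zinc finger transcription factor, is made where Cre has removed the stop. Per the study's methods the mice had a mixed genetic background and the controls were littermates. The methods give at least 3 samples a group and at least 3 animals an experiment but do not tie single libraries to embryos. The p-values therefore cover the spread from library to library, which may be technical. Among the controls it is not all technical, since their libraries differ in sex. The Y chromosome gene *Kdm5d* had 0.1 and 0.05 CPM in control replicates 1 and 2 and 73.7 CPM in control replicate 3.

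Glycolysis turns glucose into pyruvate, and lactate dehydrogenase can then turn pyruvate into lactate, which leaves the cell through monocarboxylate transporters. When oxygen is low, the prolyl hydroxylases EGLN1 and EGLN3 no longer mark HIF1A for destruction, and HIF1A with its partner ARNT binds short ACGTG or GCGTG motifs and raises transcription of many glycolytic genes, *Vegfa* and other targets. Neural progenitors are known for high aerobic glycolysis, while differentiating neurons shift towards oxidative metabolism.

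Levels are given in CPM, the reads of a gene scaled to the effective size of its library. The files held 21767904 to 25126847 reads in listed genes per overexpression library and 19410365 to 22174028 per control library. The libraries were uneven in ways that genotype labels do not give. Overexpression replicate 3 had the lowest summed level of all 7 microglia and macrophage markers, 84.4 CPM, where the other overexpression libraries had 231 and 302 CPM and the controls 280 to 365 CPM. The 6 pyramidal neuron markers summed to 34.4 to 48.7 CPM in overexpression libraries, and to 100, 49.4 and 13.8 CPM in control replicates 1, 2 and 3. *Xist*, the RNA of the inactive X chromosome, was at 1.37 to 2.33 CPM in overexpression libraries, at 2227 and 2191 CPM in control replicates 1 and 2 and at 2.35 CPM in control replicate 3, so sex and genotype overlap in part. *Sp9* was at 178, 268 and 305 CPM in overexpression libraries, against 130, 147 and 170 CPM in controls. The striatal neuron marker *Foxp1* and the GABA enzyme *Gad1* were present at over 200 CPM in every library.

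No glycolysis or hypoxia gene passed the test. At an adjusted p under 0.05 from limma over all 15102 genes tested, 0 of the 40 were called, where 0.0265% of all genes were. At an unadjusted p under 0.05, limma and edgeR reached 0 of the 40 and DESeq2 reached 1, where limma reached 5.52% of all genes. Adjusted p-values of the 40 from limma ran from 0.788 to 0.980. edgeR and DESeq2 on recovered reads also called 0 of the 40, where they called 0.0331% and 0.225% of all genes tested. By value 15 genes were higher and 25 lower in overexpression, 49.8% of all genes being lower, and the median log2 fold change was -0.05 over the 40 and 0.00 over all genes tested. In 3 of the 40, *Pkm*, *Egln3* and *Ero1l*, the groups did not overlap, where this held for 11.2% of all genes. *Pkm* and *Egln3* were lower in all overexpression libraries, as 5.73% of all genes were, and *Ero1l* was higher. These shares are near or under the background.

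**Figure D1:**
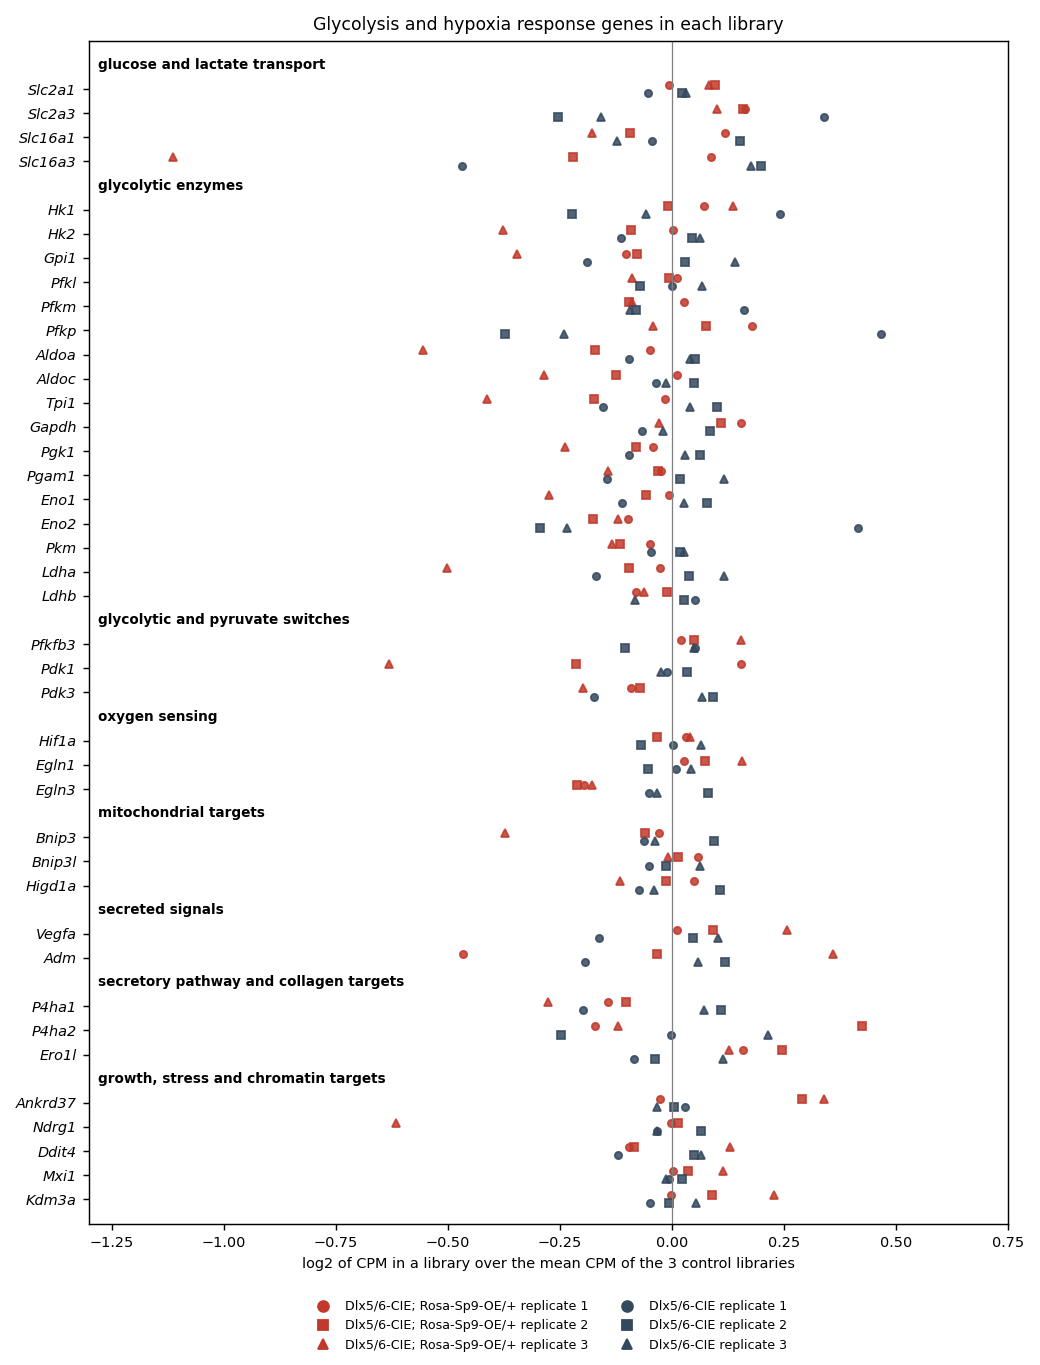
Level of each of the 40 genes in each library as log2 of its CPM over the mean CPM of the 3 control libraries, with *Dlx5/6-CIE; Rosa-Sp9-OE/+* points in red above *Dlx5/6-CIE* points in dark blue in each row. Groups overlap in all rows but *Pkm*, *Egln3* and *Ero1l*, and the red triangle of replicate 3 is the lowest of the 6 points in 18 rows.

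**Figure D2:**
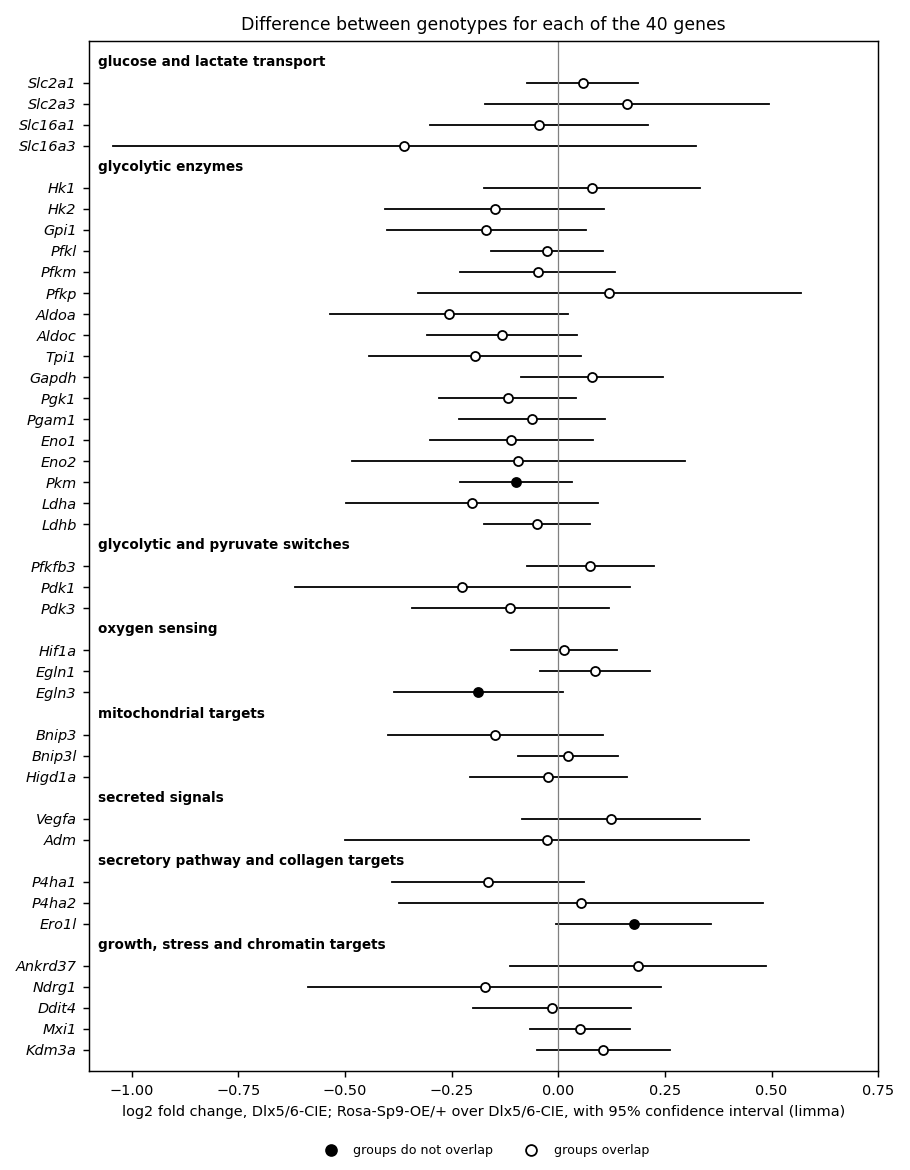
Log2 fold change of *Dlx5/6-CIE; Rosa-Sp9-OE/+* over *Dlx5/6-CIE* for each of the 40 genes with its 95% confidence interval from limma (n = 3 each). Every interval holds 0, the widest is that of *Slc16a3*, from -1.04 to 0.32, and filled points mark the 3 genes without overlap.

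Glucose enters through *Slc2a1* (GLUT1), the transporter of progenitors, glia and blood vessels, and *Slc2a3* (GLUT3), the high-affinity transporter of neurons. *Slc2a1* had 62.2, 66.8 and 66.2 CPM in overexpression libraries, against 60.2, 63.5 and 63.8 CPM in controls. The log2 fold change of *Slc2a1* was 0.06, with a 95% interval from -0.07 to 0.19. *Slc2a3* had 25.7, 25.6 and 24.6 CPM in overexpression libraries, against 29.1, 19.3 and 20.6 CPM in controls, so control replicate 1 lay above all others and the remaining controls lay below the overexpression group. For *Slc2a3* the log2 fold change was 0.16 (standard error 0.14), and 0.34 without control replicate 1. Of the lactate transporters, *Slc16a1* (MCT1) had a log2 fold change of -0.05. *Slc16a3* (MCT4), the export form induced by hypoxia, had 11.6, 9.41 and 5.07 CPM in overexpression libraries, against 7.92, 12.6 and 12.4 CPM in controls. The log2 fold change of *Slc16a3*, -0.36, was the largest in size of the 40, and it was -0.04 without overexpression replicate 3. *Slc16a3* was named in full after its values were seen, as were the other genes marked so below.

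The 17 glycolytic enzymes were the most abundant group. Per kilobase of transcript, *Gapdh*, which makes NADH and bisphosphoglycerate, had 759 CPM in overexpression and 718 CPM in controls, and *Pkm*, the pyruvate kinase of brain and muscle, had 395 CPM in overexpression and 423 CPM in controls. On the same scale *Ldhb*, *Pgam1*, *Eno1*, *Pgk1*, *Aldoa*, *Ldha*, *Tpi1* and *Gpi1* followed, from 171 CPM for *Ldhb* to 66.6 CPM for *Gpi1* in overexpression and from 178 CPM for *Ldhb* to 75.0 CPM for *Gpi1* in controls. Of the 17, 14 were lower and 3 higher by value in overexpression, 0 were called, and their median log2 fold change was -0.10, beside 0.00 over all genes tested. Their summed level was 4600, 4434 and 4064 CPM in overexpression libraries, against 4423, 4631 and 4594 CPM in controls. Replicate 3 was the lowest of the overexpression group, and the other values overlapped.

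*Gapdh* itself, a gene at chromosome 6 from 125161715 to 125166467 of GRCm38, had 1134, 1100 and 999 CPM in overexpression libraries, against 972, 1080 and 1005 CPM in controls. Its log2 fold change was 0.08, with a 95% interval from -0.09 to 0.25. *Pkm*, at chromosome 9 from 59656368, had 995, 950 and 938 CPM in overexpression libraries, against 996, 1042 and 1049 CPM in controls. The highest overexpression library and the lowest control differed by little more than 1 CPM, so the lack of overlap is narrow, and the log2 fold change was -0.10 (95% interval from -0.23 to 0.03, adjusted p = 0.788 from limma). Separate *Pkm* isoforms were not analysed here, since the table has 1 value per gene.

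Among the upper steps, *Hk1*, the main brain hexokinase, had a log2 fold change of 0.08 and *Hk2*, its hypoxia-induced partner, -0.15. *Hk2* had 22.9, 21.5 and 17.6 CPM in overexpression libraries, against 21.2, 23.6 and 23.9 CPM in controls. *Gpi1*, which turns glucose phosphate into fructose phosphate, was at -0.17. The phosphofructokinases, which commit sugar to glycolysis, were at -0.03 for *Pfkl*, -0.05 for *Pfkm* and 0.12 for *Pfkp*. *Pfkp*, named after its values were seen, had 136, 127 and 117 CPM in overexpression libraries, against 166, 92.9 and 102 CPM in controls. Control replicate 1 was the highest library and the others of its group were the lowest. The same order held for *Slc2a3* and for *Eno2*, the neuronal enolase, with 43.9, 41.5 and 43.2 CPM in overexpression libraries, against 62.6, 38.3 and 39.9 CPM in controls. Of the 40 genes, 6 were highest in control replicate 1: *Slc2a3*, *Hk1*, *Pfkm*, *Pfkp*, *Eno2* and *Ldhb*. It was the highest for 17.8% of all genes, so this count is not above the background. That library also had the highest pyramidal neuron markers, whose part in these values was not tested. Without it the log2 fold changes were 0.38 for *Pfkp*, 0.13 for *Eno2* and 0.20 for *Hk1*, and none was called.

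The aldolases split fructose bisphosphate, and triose phosphate isomerase balances the products. *Aldoa* had the lowest unadjusted p of the enzymes (0.067 from limma) and a log2 fold change of -0.26 (95% interval from -0.54 to 0.02). It had 178, 164 and 125 CPM in overexpression libraries, against 172, 191 and 190 CPM in controls, and it is named in full after its values were seen. *Aldoc*, the brain aldolase of astrocytes and radial glia, was at -0.13. *Tpi1* had 153, 137 and 116 CPM in overexpression libraries, against 139, 165 and 159 CPM in controls, and a log2 fold change of -0.20. In both *Aldoa* and *Tpi1* overexpression replicate 3 was the lowest library, while replicate 1 lay within the range of the controls. Without replicate 3 the log2 fold changes were -0.11 for *Aldoa* and -0.09 for *Tpi1*.

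The lower steps ran the same way by value. *Pgk1*, the first step that yields ATP, was at -0.12, *Pgam1* at -0.06 and *Eno1*, the broadly expressed enolase, at -0.11 on the log2 scale. *Ldha*, the subunit that favours lactate formation and is induced by HIF, was at -0.20 (95% interval from -0.50 to 0.09), and at -0.06 without overexpression replicate 3. *Ldhb*, the subunit that favours lactate use, had 219, 230 and 222 CPM in overexpression libraries, against 240, 236 and 219 CPM in controls. That is a log2 fold change of -0.05, with a 95% interval from -0.17 to 0.07.

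The switches around the pathway differed by less than the spread of the libraries. *Pfkfb3*, whose product activates phosphofructokinase, had 88.8, 90.6 and 97.4 CPM in overexpression libraries, against 90.7, 81.5 and 90.6 CPM in controls, and a log2 fold change of 0.08 (95% interval from -0.07 to 0.22). The kinases *Pdk1* and *Pdk3*, which keep pyruvate out of mitochondria, were at -0.22 and -0.11. *Pdk1*, named in full after its values were seen, had 30.2, 23.4 and 17.5 CPM in overexpression libraries, against 26.9, 27.8 and 26.7 CPM in controls. Its controls were nearly level while the overexpression libraries spread on both sides of them, and without replicate 3 the log2 fold change was -0.03. *Pgk1* and *Pdk3* lie on the X chromosome, and with *Xist* as a covariate their log2 fold changes were -0.15 and -0.19.

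Overexpression replicate 3 was the lowest library for 18 of the 40 genes, 10 of them glycolytic enzymes, and for 24.4% of all genes tested. It was the highest for 8 of the 40, among them *Vegfa*, *Egln1* and *Kdm3a*, and for 26.5% of all genes. The same library had the lowest summed radial glia markers, 2074 CPM, where the other overexpression libraries had 2358 and 2377 CPM and controls 2238 to 2690 CPM, beside the low microglial markers given above. The 7 radial glia markers were lower in overexpression in 6 cases by value, 0 were called, and the 7 microglial markers were all lower by value with 0 called. At an unadjusted p under 0.05 from limma, 1 radial glia marker and 2 microglial markers were lower, beside 5.52% of all genes in either direction. Of either list 0 lacked overlap, beside 11.2% of all genes. All 5 oligodendrocyte precursor markers were lower by value too, with 0 called and a sum of 75.9 to 101 CPM in overexpression and 92.2 to 105 CPM in controls. Of these 5, 0 reached an unadjusted p under 0.05 from limma and 2 were lower without overlap, as 5.73% of all genes were. The 14 markers of the striatal neuron lineage ran the other way, 11 higher and 3 lower by value. Of these 14, 4 were higher at an unadjusted p under 0.05 from limma, beside 5.52% of all genes in either direction. Without overlap 4 were higher, beside 11.2% of all genes in either direction, and 0 were called by limma or edgeR and 2 by DESeq2. They summed to 4556, 4698 and 5438 CPM in overexpression libraries, highest in replicate 3, against 4427, 4177 and 4557 CPM in controls. The list includes *Sp9* itself, which the construct raises, at 178, 268 and 305 CPM in overexpression libraries, against 130, 147 and 170 CPM in controls. Part of these counts and of this sum is therefore set by the construct. The part of these cell types in the levels of the enzymes was not tested. In bulk tissue, fewer cells of a type and less RNA per cell cannot be told apart.

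**Figure D3:**
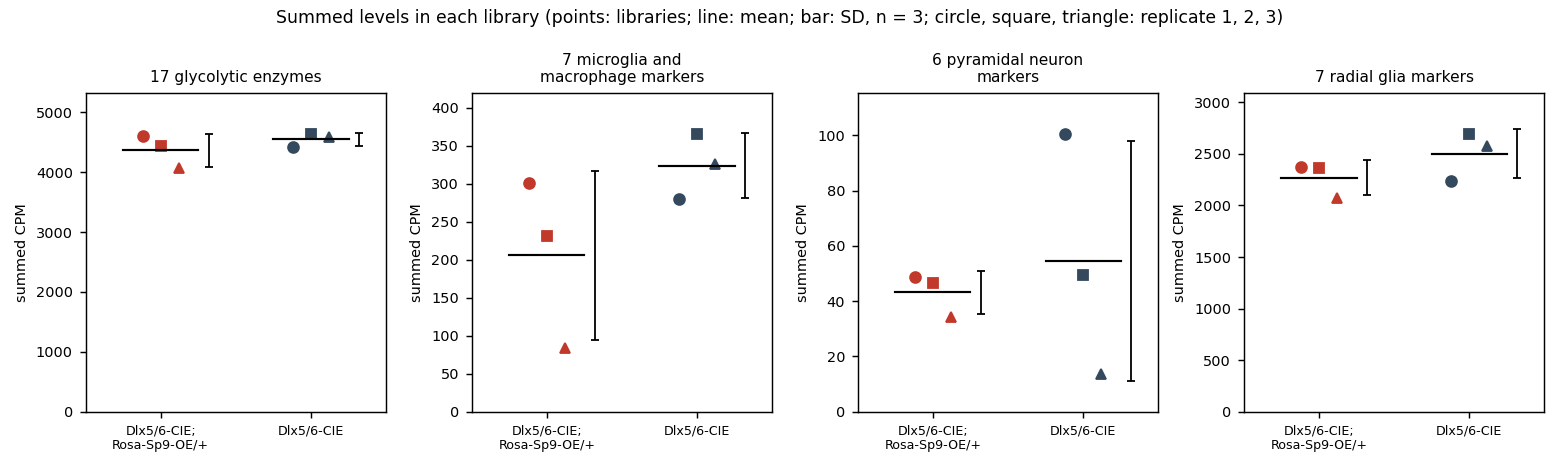
Summed CPM of the 17 glycolytic enzymes and of 3 marker lists in each library, *Dlx5/6-CIE; Rosa-Sp9-OE/+* left of *Dlx5/6-CIE*, with the mean as a line and the SD as a bar (n = 3 each). Overexpression replicate 3 is the lowest library for the enzymes (4064 CPM), for microglial markers (84.4 CPM) and for radial glia markers (2074 CPM), and control replicate 1 is the highest for pyramidal neuron markers (100 CPM).

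Of the 3 genes of the oxygen sensor 0 were called, and the groups overlapped in all but 1 hydroxylase. *Hif1a* had 145, 139 and 146 CPM in overexpression libraries, against 142, 135 and 148 CPM in controls, and its log2 fold change was 0.01 with a 95% interval from -0.11 to 0.14. *Egln1* (PHD2), the main hydroxylase at normal oxygen, was at 0.09. *Egln3* (PHD3), a hydroxylase that is itself a HIF target, had 12.7, 12.5 and 12.9 CPM in overexpression libraries, against 14.0, 15.4 and 14.2 CPM in controls. All 3 overexpression libraries lay below all controls, as they did for 5.73% of all genes. The log2 fold change of *Egln3* was -0.19 (95% interval from -0.39 to 0.01, adjusted p = 0.788 from limma).

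The targets on mitochondria and in secretion lay on both sides of 0. *Bnip3l* (NIX), a receptor that sends mitochondria to autophagy, had 185, 179 and 176 CPM in overexpression libraries, against 171, 176 and 185 CPM in controls, the smallest ratio of highest to lowest library of the 40, at 1.08. Its relative *Bnip3* was at -0.15 and *Higd1a*, a respiratory chain factor, at -0.02 on the log2 scale. *Vegfa*, the growth factor that guides vessels into the neural tube, had 63.3, 66.9 and 74.9 CPM in overexpression libraries, against 56.0, 64.8 and 67.4 CPM in controls. Its log2 fold change was 0.12 (95% interval from -0.08 to 0.33), and it was 0.06 without overexpression replicate 3, 0.04 without control replicate 1 and 0.015 with *Xist* as a covariate. *Adm*, the vasodilator adrenomedullin, stayed under 3 CPM in all libraries and was at -0.03.

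*Ero1l*, the oxidase that drives disulfide formation in the endoplasmic reticulum, ran opposite to *Egln3*. It had 28.3, 30.0 and 27.7 CPM in overexpression libraries, against 23.9, 24.7 and 27.4 CPM in controls, and all overexpression libraries lay above all controls. The log2 fold change was 0.18 (95% interval from -0.01 to 0.36, adjusted p = 0.788 from limma), and 0.06 with *Xist* as a covariate, where *Egln3* was at -0.16. The collagen hydroxylase subunits *P4ha1* and *P4ha2*, both needed for stable collagen helices, were at -0.17 and 0.05. *P4ha1* had 28.9, 29.8 and 26.3 CPM in overexpression libraries, against 27.8, 34.4 and 33.5 CPM in controls, with overlap. Of the growth, stress and chromatin targets, *Ddit4*, an inhibitor of mTOR complex 1, had 90.0, 90.7 and 105 CPM in overexpression libraries, against 88.4, 99.6 and 101 CPM in controls, and a log2 fold change of -0.01. *Mxi1*, a MYC antagonist, was at 0.05, *Kdm3a*, a histone demethylase, at 0.11, *Ankrd37*, an ankyrin repeat protein, at 0.19 and *Ndrg1*, a stress-induced gene, at -0.17.

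Across the libraries these genes were about as variable as the rest of the table. The ratio of the highest to the lowest of the 6 libraries had a median of 1.26 over the 40, beside 1.27 over 14364 genes of at least 1 CPM. The median coefficient of variation was 6.82% in overexpression and 6.65% in controls over the 40, beside 7.09% in overexpression and 8.17% in controls over those genes. *Bnip3l*, *Mxi1* (1.09), *Ldhb* (1.10) and *Hif1a* (1.10) were the steadiest by this ratio, and *Slc16a3* (2.48), *Pfkp* (1.79), *Adm* (1.77) and *Pdk1* (1.72) the most variable. The size of the log2 fold change had a median of 0.11 over the 40 and 0.09 over all genes tested, with a median standard error of 0.09 for the 40 and 0.10 for all genes.

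The promoters of *Egln3* and *Ero1l* are shown as those of the genes outside the glycolytic enzymes whose groups did not overlap, although neither gene was called. Those of *Pkm*, the enzyme without overlap, are not shown. Its 2 promoters held at most 2 ACGTG and 0 GCGTG. Each run holds 250 bases before and 50 after the start from RefSeq on GRCm38.p6, at chr12:54203825-54204124 and chr14:45318523-45318822, both on the minus strand, and capitals mark ACGTG or GCGTG on either strand. RefSeq lists *Ero1l* as *Ero1a*.
Egln3: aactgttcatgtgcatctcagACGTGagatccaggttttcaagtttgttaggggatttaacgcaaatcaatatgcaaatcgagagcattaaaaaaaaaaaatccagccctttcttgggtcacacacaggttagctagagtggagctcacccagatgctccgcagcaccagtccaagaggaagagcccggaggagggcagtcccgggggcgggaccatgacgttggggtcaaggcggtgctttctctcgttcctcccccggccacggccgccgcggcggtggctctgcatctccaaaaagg
Ero1l: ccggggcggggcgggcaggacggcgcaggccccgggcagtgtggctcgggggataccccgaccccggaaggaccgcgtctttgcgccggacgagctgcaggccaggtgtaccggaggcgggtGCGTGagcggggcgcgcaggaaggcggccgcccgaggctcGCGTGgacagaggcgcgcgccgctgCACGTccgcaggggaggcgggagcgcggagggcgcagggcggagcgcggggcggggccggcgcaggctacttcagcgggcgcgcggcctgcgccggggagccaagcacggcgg

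*Egln3* held 1 ACGTG, and *Ero1l* held 1 ACGTG, printed as its complement CACGT, and 2 GCGTG. RefSeq promoters were matched for 37 of the 40 genes, with 55 promoters in all, since some genes have several starts. ACGTG was found in 31 of the 55 (56.4%), against 19.6% of 32851 mouse promoters of the same length, and GCGTG also in 31 of the 55 (56.4%), against 32.4%. The members' promoters also held more G and C, with a median of 63.3% against 52.7%, and more CpG, with a median of 21 against 7, and both motifs contain a CpG. The list was drawn up from known HIF targets and glycolytic genes, so these shares describe it and carry no test. A match says only that the letters are present.

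*Slc2a3*, *Hk2*, *Tpi1*, *Eno2*, *Gapdh* and *Ldhb* lie on chromosome 6 within 40 Mb of *Gt(ROSA)26Sor*, the locus of the knock-in, between 9.7 and 30.3 Mb from it. *Kdm3a* lies just beyond, at 41.4 Mb. *Gt(ROSA)26Sor* itself had 23.0, 23.2 and 23.1 CPM in overexpression libraries, against 11.8, 13.3 and 14.2 CPM in controls. None of the 6 was called, and their groups overlapped in every case.

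Of the sequence copies of *Gapdh*, 1 passed the test where *Gapdh* itself did not. Mammalian genomes hold processed copies of abundant glycolytic mRNAs, and reads of such copies and of the parent gene cannot be fully told apart by sequence. Transcripts of other listed genes were matched to members in the sense direction, at 85% identity or more over 300 bases or more. Only matches annotated as pseudogenes or described as retrotransposed were kept as copies, so other similar transcripts may be left out. The kept copies were 12 genes, 5 of them for *Gapdh*, 2 for *Eno1* and 1 each for *Ldhb*, *Pgk1*, *Pgam1*, *Pkm* and *Gpi1*. *Gm13394*, a processed pseudogene on chromosome 2 from 28933610 to 28934609, had 117, 115 and 109 CPM in overexpression libraries, against 216, 235 and 232 CPM in controls. It is 1 of the 4 genes called in the whole table, with a log2 fold change of -0.995 (95% interval from -1.12 to -0.87, adjusted p = 0.000475 from limma). *Gm7336*, a second pseudogene of *Gapdh*, on chromosome 7 from 51746647 to 51747878, had 28.4, 25.9 and 24.3 CPM in overexpression libraries, against 40.6, 40.6 and 41.2 CPM in controls. The log2 fold change of *Gm7336* was -0.63, with an adjusted p of 0.0699 from limma, 0.0862 from edgeR and 1.88e-07 from DESeq2. *Gm5514*, a pseudogene of *Ldhb* on chromosome 19 from 21937380 to 21938381, had 4.30, 3.94 and 4.25 CPM in overexpression libraries, against 8.82, 7.91 and 7.01 CPM in controls. The difference was -0.85 on the log2 scale, with an adjusted p of 0.292 from limma, 0.286 from edgeR and 0.00325 from DESeq2. In these 3 pseudogenes all overexpression libraries lay below all controls, and in the other 9 copies the groups overlapped.

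The stretches below show how close copy and parent are where they differ. *Gm13394* is 99.9% identical to *Gapdh* over 1000 aligned bases and has 1 substitution, A586C, counted from 1 at the first base of *Gapdh* transcript ENSMUST00000118875.7, at chromosome 6 position 125163016, in coding exon 4. *Gm7336* has 1 substitution, G197A in exon 1 outside the coding sequence, and 2 gap bases over 1232 aligned columns. *Gm5514* has 20 substitutions over 1002 aligned bases of *Ldhb*, an identity of 98.0%. All runs are 121 bases from GENCODE transcripts on GRCm38, and capitals mark bases at which copy and parent differ. The *Gapdh* run joins exons 3 and 4 within chr6:125162956-125163174 and the *Ldhb* run joins exons 2 and 3 within chr6:142501437-142505511, both on the minus strand and coding.
Gapdh: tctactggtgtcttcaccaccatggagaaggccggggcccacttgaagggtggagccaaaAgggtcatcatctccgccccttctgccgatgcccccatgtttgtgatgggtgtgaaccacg
Gm13394: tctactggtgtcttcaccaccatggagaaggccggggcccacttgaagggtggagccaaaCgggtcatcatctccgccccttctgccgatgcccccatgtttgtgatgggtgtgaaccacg
Ldhb: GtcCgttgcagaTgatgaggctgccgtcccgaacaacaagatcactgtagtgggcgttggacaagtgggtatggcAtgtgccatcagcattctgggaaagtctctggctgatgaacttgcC
Gm5514: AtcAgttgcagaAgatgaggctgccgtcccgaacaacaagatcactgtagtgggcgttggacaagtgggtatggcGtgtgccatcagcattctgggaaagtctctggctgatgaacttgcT

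The *Gm13394* run lies at chr2:28934204-28934324 on the minus strand and the *Gm5514* run at chr19:21937409-21937529 on the plus strand. *Gm7336* has the same 121 bases as *Gapdh* in this stretch, so a read within it cannot be placed by sequence between those loci.

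The 5 copies of *Gapdh* held 12.15, 12.09 and 12.54% of the CPM of *Gapdh* and its copies in overexpression libraries, against 21.39, 20.98 and 21.92% in controls. This share was 12.3 ± 0.24% in overexpression and 21.4 ± 0.47% in controls (SD, n = 3 each). The difference of -9.17 percentage points had an exact two-sided permutation p of 0.1, the smallest that 3 against 3 libraries allow. The adjusted p from this test over the 7 genes with copies was 0.35. No share could pass 0.05 in this test, so it cannot decide whether the shares differ. In CPM, the copies were lower by a mean of 127 in overexpression while *Gapdh* was higher by a mean of 58.4. Summed with its copies, *Gapdh* had 1291, 1251 and 1142 CPM in overexpression libraries, against 1237, 1367 and 1287 CPM in controls, so the log2 fold change turned to -0.08, against 0.08 for *Gapdh* alone, both under the threshold. The direction of *Gapdh* therefore depends on where the reads of its copies are counted. The copy of *Ldhb* held 1.83 ± 0.13% in overexpression and 3.30 ± 0.22% in controls (SD, n = 3 each, exact permutation p = 0.1, adjusted 0.35). The sum of *Ldhb* and its copy had a log2 fold change of -0.07, against -0.05 for *Ldhb* alone.

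*Eno1* also had abundant copies. Its protein-coding copy *Eno1b* had 83.2, 83.9 and 68.5 CPM in overexpression libraries, against 77.7, 90.3 and 84.8 CPM in controls, and with the pseudogene *Gm4735* the copies held 34.6 ± 0.42% in overexpression and 34.6 ± 0.26% in controls (SD, n = 3 each). The copies of *Pgk1*, *Pgam1*, *Pkm* and *Gpi1* held under 1% of their families in every library, too little for a comparison of shares. *Gapdh* lies 12.1 Mb and *Ldhb* 29.4 Mb from *Gt(ROSA)26Sor*. Whether position bears on the assignment of reads was not tested.

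**Figure D4:**
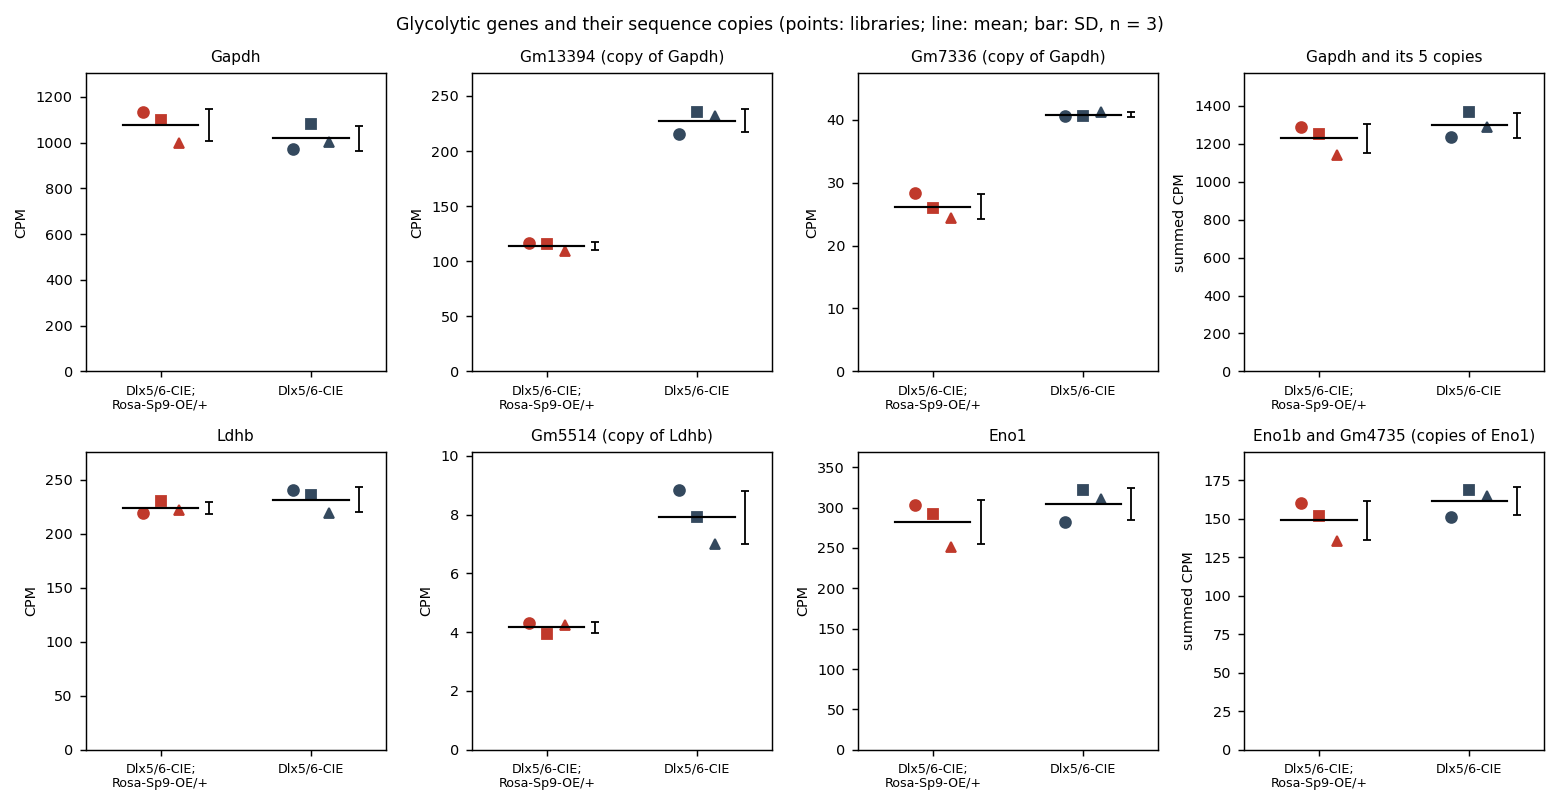
CPM of *Gapdh*, *Ldhb* and *Eno1* and of their sequence copies in each library, *Dlx5/6-CIE; Rosa-Sp9-OE/+* left of *Dlx5/6-CIE*, with the mean as a line and the SD as a bar (n = 3 each). *Gm13394* lies at 109 to 117 CPM in overexpression and 216 to 235 CPM in controls and *Gm7336* and *Gm5514* are also separated, while *Gapdh*, *Ldhb*, *Eno1* and the copies of *Eno1* overlap.

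Isozymes of 1 step differ in affinity and regulation, so their balance was compared as a share of CPM per kilobase within 10 families, giving 12 shares. *Hk2* made up 12.5 ± 1.83% of the hexokinase level in overexpression and 14.4 ± 2.67% in controls (SD, n = 3 each). *Ldhb* made up 64.0 ± 3.99% of lactate dehydrogenase in overexpression and 61.6 ± 3.42% in controls, and *Eno2* made up 9.96 ± 0.96% of enolase in overexpression and 10.1 ± 3.26% in controls. The phosphofructokinases were nearly even, with 32.4 ± 0.74% *Pfkl*, 35.55 ± 0.85% *Pfkm* and 32.04 ± 0.88% *Pfkp* in overexpression and 33.3 ± 4.30% *Pfkl*, 36.9 ± 1.76% *Pfkm* and 29.9 ± 5.52% *Pfkp* in controls. These differences were within the spread of the libraries.

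*Egln3* alone of the 12 had no overlap, with 15.59, 15.02 and 14.59% of the summed *Egln1* and *Egln3* level in overexpression libraries, against 17.12, 19.12 and 16.98% in controls. Its exact two-sided permutation p was 0.1, the smallest possible, so no share could pass 0.05 in this test. The adjusted p from the same test over the 12 shares was 0.75. For the other 11 shares the exact p ran from 0.2 to 1. Control replicate 1 carried 13.9% *Eno2* and 36.2% *Pfkp*, the highest of the 6 libraries. Without it 9 of the 12 shares did not overlap. In CPM of single genes 34.2% of all genes then lacked overlap, but no such background was computed for shares. The phosphofructokinase shares add up to the whole of their family, so the 12 are not independent, and the count of 9 carries no test.

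**Figure D5:**
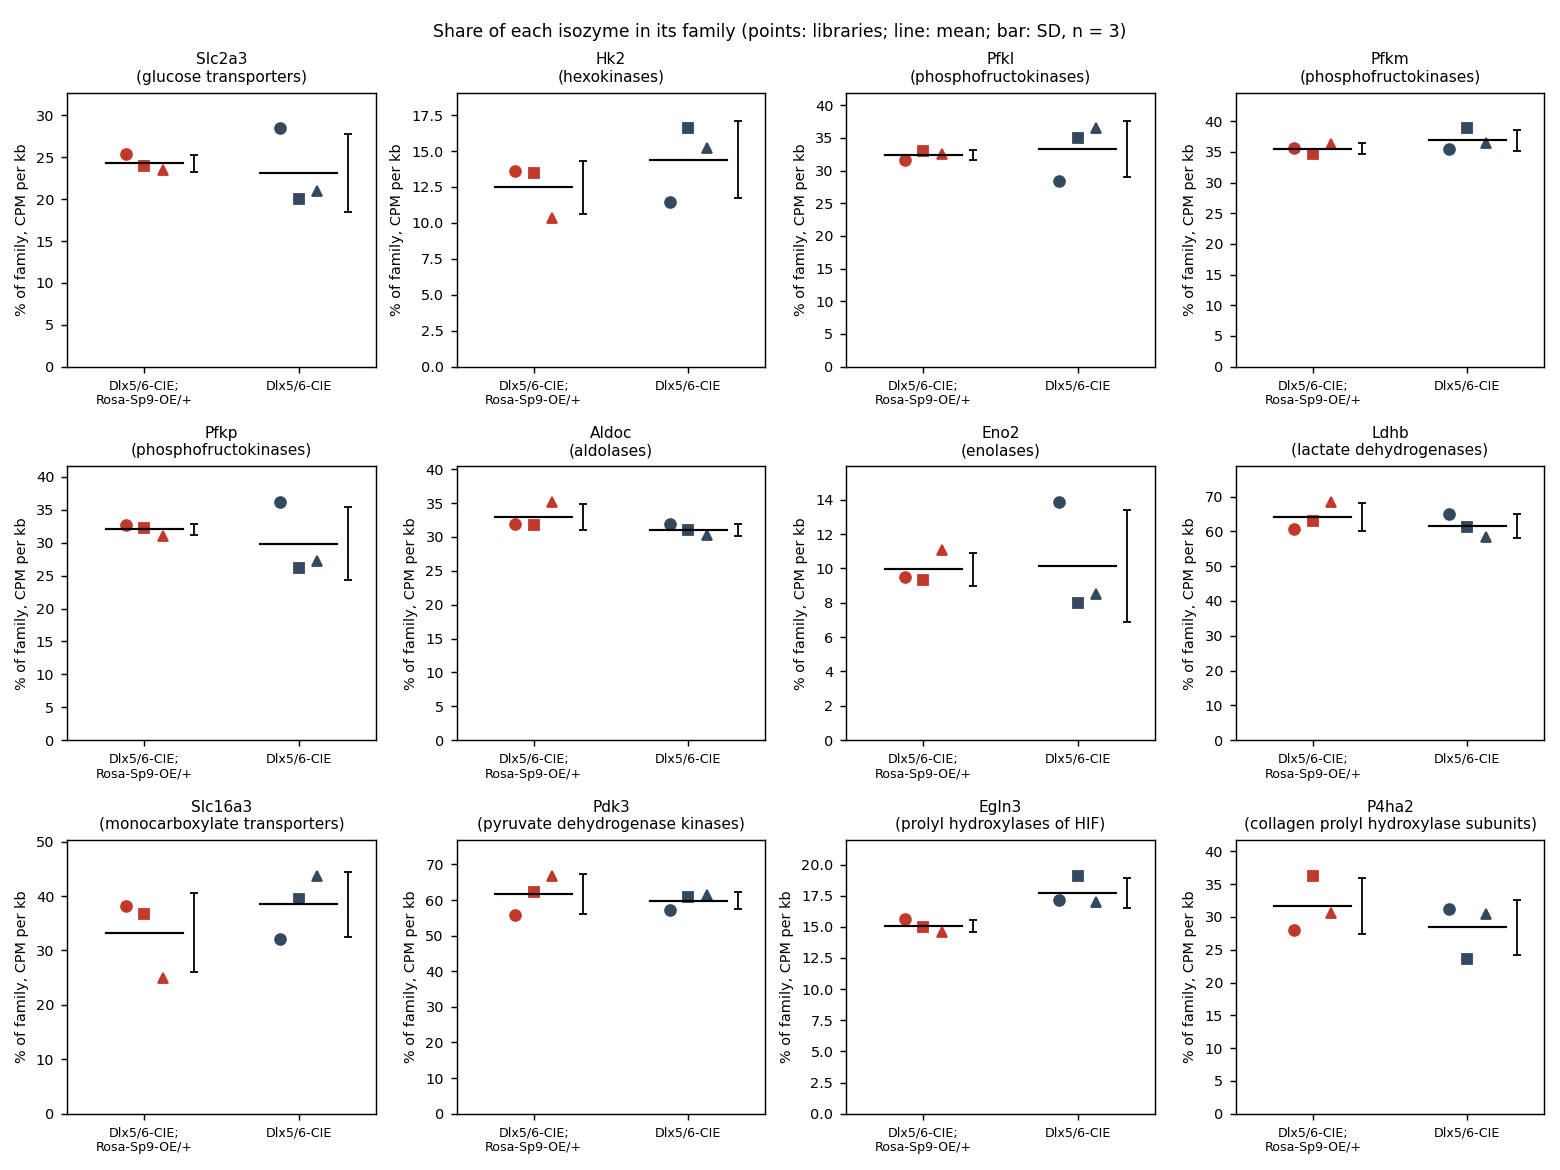
Share of each isozyme in its family, in percent of CPM per kilobase of transcript, in each library, *Dlx5/6-CIE; Rosa-Sp9-OE/+* left of *Dlx5/6-CIE*, with the mean as a line and the SD as a bar (n = 3 each). The groups overlap in 11 panels, and only *Egln3* is lower in all overexpression libraries, at 14.59 to 15.59% against 16.98 to 19.12% in controls.

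Of 133 further genes of these pathways that were tested, 0 were called by limma, edgeR or DESeq2. Before adjustment 2 were higher and 9 lower at a limma p under 0.05. Of all 15102 genes tested, 405 were higher and 429 lower at that p, which is 5.52% in either direction. The 51 other HIF targets held 1 of the 2 higher and 7 of the 9 lower. The groups did not overlap in 19 of the 133, 4 higher and 15 lower, which is 14.3% beside 11.2% of all genes. Among 52 other glycolysis and pyruvate genes, 20 were higher and 32 lower by value, with a median log2 fold change of -0.05. *Hk3*, a hexokinase of white blood cells, had 2.50, 2.29 and 0.815 CPM in overexpression libraries, against 3.26, 6.42 and 4.31 CPM in controls, and a log2 fold change of -1.17. It was lowest in overexpression replicate 3, the library with the lowest microglial markers, and that relation was not tested. *Pfkfb2*, which like *Pfkfb3* makes the activator of phosphofructokinase, had 46.5, 47.9 and 48.2 CPM in overexpression libraries, against 43.0, 38.1 and 40.8 CPM in controls, and a log2 fold change of 0.23 (unadjusted p = 0.0085, adjusted p = 0.788 from limma). *Gbe1* and *Pgm2*, enzymes of glycogen metabolism, were at -0.33 and -0.21 without overlap, and *Myc*, a transcription factor that raises glycolytic genes, at 0.18 without overlap.

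The 21 HIF subunits and regulators stayed closest to 0, with 11 higher and 10 lower by value and log2 fold changes from -0.10 to 0.13. Of 51 other HIF targets, 22 were higher and 29 lower by value, with a median log2 fold change of -0.07. *Selenbp1*, *Igfbp3*, which binds insulin-like growth factors, the carbonic anhydrase *Car12* and *Tmem45a* had no overlap and were at -0.37, -0.31, -0.21 and -0.18 on the log2 scale. *Hmox1*, the heme oxygenase of macrophages and stressed cells, was chosen after its values were seen. It had 12.4, 18.6 and 5.34 CPM in overexpression libraries, against 16.6, 39.7 and 52.5 CPM in controls, and a log2 fold change of -1.55 (unadjusted p = 0.015, adjusted p = 0.788 from limma), with overlap. It too was lowest in overexpression replicate 3. *Plin2*, *Angptl4* and *Vldlr*, lipid genes chosen in the same way, were at -0.51, -0.47 and 0.34. The 11 VEGF and adrenomedullin ligands and receptors were split, with 6 higher and 5 lower by value and a median of 0.00.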

How the data were processed

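RNA-seq of 6 E16.5 LGE libraries was read from the deposited table. The authors deposited CPM per gene for 15168 genes, made with a stranded total RNA kit after ribosomal RNA removal. The submitters' processing notes name build mm10, with aligner and counter not given in the sources used here. Columns with the authors' own comparison (mean log2 CPM, log2 fold change and p-values) were left out. In each library 100.0% of CPM values were whole multiples of 1 read, within 1% of a read and rounding. The 15102 genes that reached 0.5 CPM in 3 libraries or more were tested with limma 3.58.1 in R 4.3.3 (trend, two-sided) on log2(CPM + 0.5), a scale that understates changes of low genes, with Benjamini-Hochberg adjustment over all genes and a threshold of 0.05. Replicates differed by more than sampling noise. edgeR 4.0.16 and DESeq2 1.42.0 ran on recovered reads as alternatives, beside fits with a replicate block or with 1 library left out, other filters and pseudocounts, median-of-ratios scaling and *Xist* as a covariate. The fits were tested on simulated data.

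Levels per kilobase used the longest coding transcript of GENCODE M21, and shares were compared by exact permutation tests. Copies were found with blastn 2.17.0 and kept where annotated as pseudogenes or described as retrotransposed. Genes, lists and tests were chosen with earlier results of these data known. Values in every library were given by rule for *Gapdh*, *Vegfa*, genes without overlap or with unadjusted p under 0.05, the most abundant gene of each group and those within 40 Mb of *Gt(ROSA)26Sor*. Up to 10 further pathway genes of at least 1 CPM without overlap were named by largest change, of which 1 is not reported here. Copies were named where called, without overlap or protein coding.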

Additional observations from a re-analysis of the deposited data

How the results depend on the processing

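Under every alternative run, 0 of the 40 genes and 0 of the 133 further pathway genes were called, and the genes lower by value numbered 22 to 26 of 40. The replicate number as a block gave 3 called genes in the whole table, against 4 without it, and 0 of the 40. Same-numbered libraries deviated together weakly or not at all (r of -0.10, 0.22 and 0.09), so the numbers were not taken as pairs. DESeq2 called 34 genes in the whole table. Leaving out 1 library at a time gave 3 to 15 called genes, 15 without control replicate 1 and 10 without control replicate 3. The genes of the 40 without overlap then numbered 3 to 18, 18 without control replicate 1 (34.2% of all genes), 12 without overexpression replicate 1 (24.8%) and 7 without control replicate 3 (23.0%). The isozyme shares without overlap then numbered 1 to 9. DESeq2 also called *Gm7336* (-0.64) and *Gm5514* (-0.92), and *Gm13394* was called under every alternative fitted to it.

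Log2 fold changes that changed sign were under the threshold throughout. With 1 library left out they ran from -0.13 to 0.0308 for *Slc16a1*, -0.0257 to 0.20 for *Hk1*, -0.0617 to 0.0075 for *Pfkl*, -0.0929 to 0.0336 for *Pfkm*, -0.0416 to 0.38 for *Pfkp*, -0.22 to 0.13 for *Eno2*, -0.0203 to 0.0464 for *Hif1a*, -0.0034 to 0.0532 for *Bnip3l*, -0.0615 to 0.0303 for *Higd1a*, -0.19 to 0.14 for *Adm*, -0.13 to 0.16 for *P4ha2*, -0.27 to 0.0058 for *Ndrg1* and -0.0873 to 0.0251 for *Ddit4*. With *Xist* as a covariate they were 0.0654 for *Slc16a1*, 0.0408 for *Pfkm*, 0.11 for *Eno2*, 0.0361 for *Ldhb*, -0.0555 for *Hif1a*, -0.0449 for *Bnip3l*, 0.0125 for *Higd1a* and -0.15 for *P4ha2*. *Gapdh* was at -0.0795 when summed with its copies, an alternative added after the data were seen, as were the recounts of genes without overlap or lower by value under other settings. Differences of isozyme shares ran from -0.44 to 3.80 points for *Slc2a3*, -3.32 to 0.72 for *Pfkl*, -1.24 to 1.72 for *Eno2* and -0.80 to 4.73 for *Pdk3*. The cause of these changes was not tested.

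The median standard error of the 40 was 0.09 on the log2 scale. With 3 libraries a group, differences within the intervals given could have been missed, and so could larger ones. The intervals are not adjusted for the number of genes tested, so they do not mark the smallest difference that could be called. The limma intervals of *Hk3*, from -1.98 to -0.36, and of *Pfkfb2*, from 0.08 to 0.38, did not hold 0. Both genes had an adjusted p of 0.788 from limma and were not called. Since control replicates 1 and 2 alone have high *Xist*, sex and genotype are told apart only through control replicate 3.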
